A study of Homo sapiens with 6 samples.

Results

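Microexons are exons of 3 to 30 bases, and those described here were the 706 annotated skipped microexon events with detectable transcripts in K562 cells that could be induced to overexpress PCBP1. K562 is a human erythroid leukemia cell line. From GENCODE release 44 every internal exon of this length was taken that some transcripts include and others of the same gene skip between the same neighbouring exon ends. Of 1474 such events, 706 had a mean of at least 1 TPM, a transcript abundance scaled for length and library total, on the inclusion and skipping forms together over all 6 libraries, against 26643 skipped exon events of any length. These 706 events covered 678 distinct exons in 587 genes, 680 of them in protein-coding genes and 25 in lncRNA genes. Because the members were selected on the summed TPM of both forms over all libraries, that level is a description here and is not tested. Percent spliced in (PSI) is the share of that TPM on the inclusion form, and ΔPSI is the +Dox mean minus the −Dox mean in percentage points.

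The libraries were polyA RNA from 1 K562 line in 2 groups of 3, without (−Dox) and with doxycycline (+Dox). Cells of both groups descended from a single-cell clone with a lox cassette at the AAVS1 locus, into which Flag-PCBP1 under a tet-inducible promoter was placed with puromycin selection, so that −Dox cells carry the cassette too. The groups differ both in doxycycline and in Flag-PCBP1, and the effects of the drug and the protein cannot be told apart here. The labels give 3 libraries per group but not whether they came from separate cultures, so p-values measure the spread between these libraries, which may be technical. The libraries held 84177316, 80104627 and 74766040 estimated counts in −Dox and 70905656, 82263502 and 82449808 in +Dox.

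Microexons encode only a few residues when their length is a multiple of 3, and many are known from neurons, where SRRM4 and SRRM3 promote their inclusion and PTBP1 represses it. An exon this short leaves little room for the proteins that define exons, so recognition leans on the flanking intron sequence, above all on a pyrimidine-rich stretch before the exon. PCBP1 is a KH-domain protein that binds C-rich RNA and takes part in splicing, mRNA stability and translation.

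The exons below were chosen because they carry the values described later: 10 of the 17 events past the unadjusted limits, MEF2C and KDM1A as exons with little or no inclusion in genes with a microexon known from neurons, and ABI1 and PSAP at intermediate inclusion. Each line gives 25 intron bases before the exon, the exon in capitals and 10 intron bases after it, 5′ to 3′ on the transcribed strand of GRCh38 (hg38).
SETD2 (chr3:47126648-47126663, minus strand): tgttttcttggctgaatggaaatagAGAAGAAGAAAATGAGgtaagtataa
PHF21A (chr11:45946076-45946098, minus strand): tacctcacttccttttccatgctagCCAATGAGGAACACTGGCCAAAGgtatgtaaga
CTNND1 (chr11:57806461-57806478, plus strand): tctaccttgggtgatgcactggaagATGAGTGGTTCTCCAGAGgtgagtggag
RELN (chr7:103478389-103478394, minus strand): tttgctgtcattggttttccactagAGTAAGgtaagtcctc
SUPT5H (chr19:39458294-39458305, plus strand): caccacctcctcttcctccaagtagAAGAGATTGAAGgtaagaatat
PTPRA (chr20:2975215-2975241, plus strand): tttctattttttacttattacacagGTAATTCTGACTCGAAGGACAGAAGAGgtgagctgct
CLASP1 (chr2:121427404-121427430, minus strand): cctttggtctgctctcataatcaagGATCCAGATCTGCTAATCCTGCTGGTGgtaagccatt
RPS24 (chr10:78040204-78040225, plus strand): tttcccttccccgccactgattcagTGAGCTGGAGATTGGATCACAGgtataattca
TMBIM4 (chr12:66138724-66138734, minus strand): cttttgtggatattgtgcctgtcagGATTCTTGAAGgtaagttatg
PDIA3 (chr15:43770572-43770580, plus strand): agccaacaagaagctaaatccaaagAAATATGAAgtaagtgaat
MEF2C (chr5:88817805-88817831, minus strand): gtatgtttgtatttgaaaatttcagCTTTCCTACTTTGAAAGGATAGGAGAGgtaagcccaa
KDM1A (chr1:23066060-23066071, plus strand): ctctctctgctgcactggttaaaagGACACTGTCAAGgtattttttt
ABI1 (chr10:26771075-26771089, minus strand): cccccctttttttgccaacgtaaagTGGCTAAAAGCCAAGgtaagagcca
PSAP (chr10:71823888-71823896, minus strand): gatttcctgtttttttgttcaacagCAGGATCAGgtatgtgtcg
Of the 678 distinct microexons, 674 followed an AG and 674 preceded a GT, the usual bases at the ends of introns.

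The libraries matched their labels at the induced gene. PCBP1 stood at 156, 158 and 163 TPM in −Dox and at 596, 582 and 600 TPM in +Dox, and the groups did not overlap. The log2 fold change was 1.94 (SE 0.06, adjusted p = 5.22e-10, edgeR quasi-likelihood test with Benjamini-Hochberg adjustment). Among the other poly C-binding proteins, PCBP2 rose from 180 ± 3.13 to 195 ± 6.02 TPM (SD, n = 3 each), a log2 fold change of 0.16 (edgeR adjusted p = 0.0244), a call lost when any 1 library was left out (adjusted p of 0.0509 to 0.0706). A fit with replicate number as a block ended the PCBP2 call as well. HNRNPK (log2 fold change -0.06, edgeR adjusted p = 0.465) and PCBP4 (0.31, edgeR adjusted p = 0.185) did not pass the test, and PCBP3 was too low to test.

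Erythroid markers were present in all libraries, with the embryonic globin gene HBE1 at 3317 to 3975 TPM and the transcription factor gene GATA1 at 121 to 132 TPM. All 9 erythroid markers were tested. In +Dox 4 rose and 3 fell, beside 8.16% and 7.68% of all 21045 genes tested. KLF1, an erythroid transcription factor gene, was among those that rose, at 50.7 ± 2.61 TPM in −Dox and 68.5 ± 2.16 TPM in +Dox (SD, n = 3 each). Neuronal genes were low: MAP2 and STMN2 were listed at 0 in every library, RBFOX3 stayed under 0.11 TPM, and of the 6 neuron markers only TUBB3 exceeded 1.1 TPM, at 3.39 to 5.14, and it rose in +Dox (log2 fold change 0.39, SE 0.12, edgeR adjusted p = 0.0405). Summed over the list, the neuron markers came to 4.73, 4.7 and 6.13 TPM in −Dox and 6.79, 6.16 and 6.44 TPM in +Dox. Among muscle markers, MYH7, CKM and ACTA1 were below 0.05 TPM while DES stood at 8.22 to 15.0 TPM and rose in +Dox. CD3D was at 33.6 to 57.4 TPM with CD3E and CD2 below 0.07 TPM, MS4A1 and PAX5 were listed at 0, and LYZ was at 73.1 to 131 TPM, lower in +Dox, with CD14 and CSF1R below 0.12 TPM. Their part in the inclusion values was not tested.

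By share of TPM, most microexons were mainly skipped. The median −Dox PSI was 8.78% over the 706 microexon events, 27.3% over 2965 events of 31 to 60 bases and 45.8% over 22970 events of over 60 bases. Mean PSI was under 10% in 358 microexon events (50.7%), between 10% and 90% in 241 (34.1%) and over 90% in 107 (15.2%), against 37.3%, 31.7% and 30.9% over all events. The inclusion form was listed at 0 in all 6 libraries for 75 microexon events. These shares compare groups of exons within the same libraries and were not tested. The annotation differed too, with a median of 1 inclusion and 3 skipping transcripts per microexon event, against 1 and 2 over all events. Its part in the PSI levels was not tested.

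**Figure D1:**
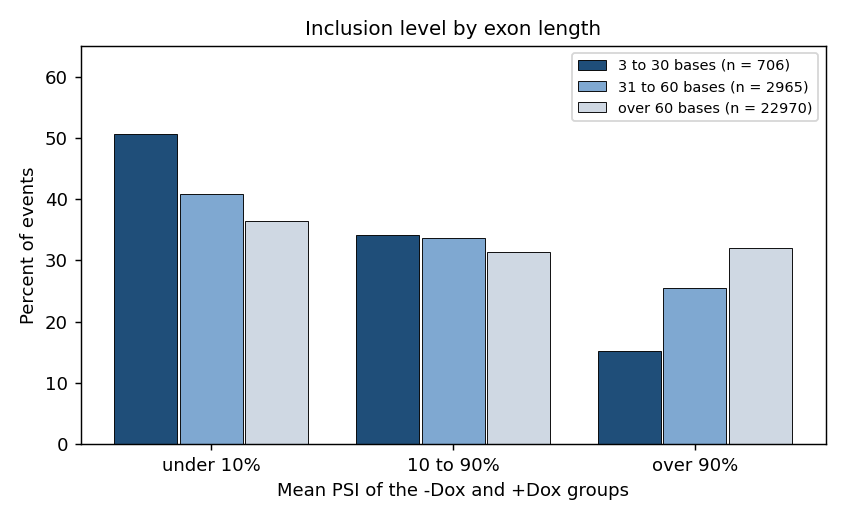
Percent of skipped exon events (vertical axis) with a mean PSI under 10%, from 10% to 90% or over 90% (horizontal axis), for 3 exon length classes. Microexons have the tallest bar under 10% (50.7%) and the shortest over 90% (15.2%).

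By position, 482 events lay in coding sequence, 102 in transcripts with no coding sequence, 53 in 5′ UTRs, 42 at the end of a coding sequence and 27 in 3′ UTRs. Median −Dox PSI was 15.0% for coding microexons and 2.28% for those in 3′ UTRs. Of the 27 in 3′ UTRs, 25 had a most abundant inclusion transcript annotated as a target of nonsense-mediated decay. Among the coding microexons 363 (75.3%) had a length that is a multiple of 3, against 48.7% of coding skipped exons of any length. That share was 87.0% among coding microexons of 3 to 9 bases and 66.7% among those of 28 to 30 bases.

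The flanking intron bases were compared as a description, without a test. Over the 640 microexons with 100 intron bases on both sides, the median share of T in the bases before the exon was 40%, against 35% over all skipped exons, while the median share of C was 20% in both. Searched on the sense strand, the pyrimidine motif TTTCT was present in the 100 bases before 59.4% of microexons and 42.2% of all skipped exons. CCC, the kind of C-rich run that PCBP1 is known to bind, was found before 55% of microexons and 58.9% of all, and after 53.3% and 56.3%. TGC, the core of the SRRM4 motif, was found before 80% against 76.5%, GCATG, the RBFOX motif, after 13.9% against 9.96%, and ACTAA, the core of the QKI motif, before 11.6% against 7.57%. TGC and GCATG can share bases, as in TGCATG. These matches describe the windows and are not binding sites.

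No microexon passed the test at the study's limits, an adjusted p under 0.05 and an absolute ΔPSI above 5 points (limma on the log2 ratio of inclusion to skipping TPM, pseudocount 0.1, fitted over 26633 events). The background was the same, with 0% of all events called, and the smallest adjusted p was 0.195 among microexons. An unadjusted p under 0.05 was reached by 44 of 706 microexon events (6.23%) and by 1882 of all events (7.07%). The median ΔPSI was 0, with 313 events higher, 312 lower and 81 equal, and the median absolute ΔPSI was 1.19 points, against 1.08 over all events. The median SD between replicates was 1.55 points in −Dox and 1.41 in +Dox.

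Without adjustment, 17 microexon events had p under 0.05 and an absolute ΔPSI above 5 points. Of these, 8 were more included in +Dox (1.13% of members, background 1.86%) and 9 were more skipped (1.27%, background 1.31%), and neither share exceeded that over all events in this fit. With a pseudocount of 1 TPM the 17 became 31 (18 more included), 4.39% of members against 4.3% of all events, and with estimated counts 13, 1.84% against 1.8%. The 17 became 11 without −Dox replicate 3 (5 more included; 1.56% against 3.18% of all events). Without +Dox replicate 1 the 8 became 13, and 2.97% of members passed in either direction, against 3.33% of all events. Every +Dox value lay above every −Dox value in 35 events (4.96%, background 5.96%) and below in 43 (6.09%, background 4.37%). All but 1 of the 17 are described next as the members with the smallest p, with no claim that any of them changed. For each, an exact permutation test of 3 against 3 libraries cannot give a two-sided p below 0.1.

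**Figure D2:**
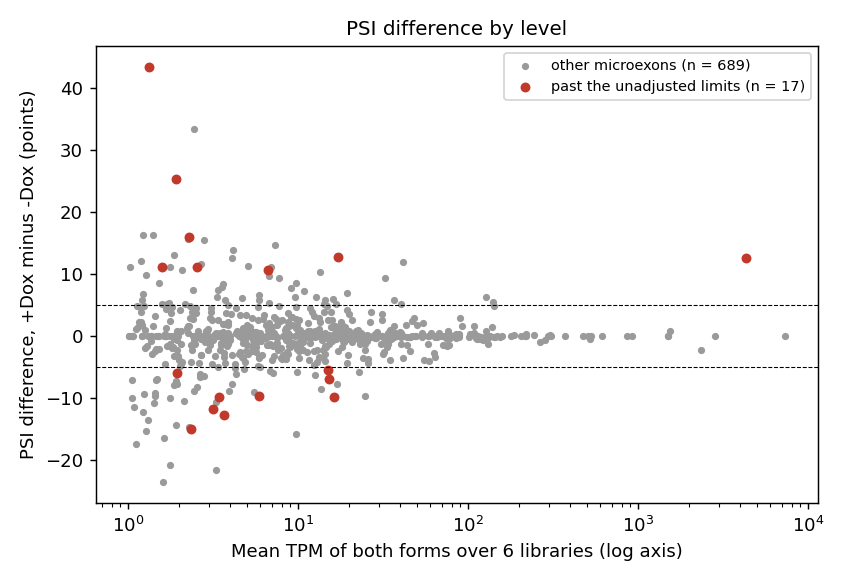
ΔPSI in percentage points (vertical axis) against the mean TPM of both forms over 6 libraries (horizontal log axis) for 706 microexon events. Dashed lines mark 5 points in either direction, and red points are the 17 events past the unadjusted limits, with RPS24 as the red point farthest to the right.

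Among the events with higher PSI in +Dox, the microexon of RPS24, a protein of the small ribosomal subunit, had the most abundant transcripts. Its 22 bases lie in the 3′ UTR. PSI was 27.3%, 28.7% and 27.9% in −Dox and 39.9%, 41.8% and 40.1% in +Dox, without overlap. The log2 ratio difference was 0.82 (SE 0.20, limma adjusted p = 0.565). The inclusion form went from 1106 to 1199 TPM up to 1766 to 1896 TPM while the gene total was not called (log2 fold change 0.07, edgeR adjusted p = 0.483). RPS24 has near-identical copies elsewhere in the genome, so its values are uncertain.

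CLASP1, which encodes a protein that stabilises microtubule ends, had a coding microexon of 27 bases, or 9 residues. PSI was 13.7%, 11.6% and 11.1% in −Dox and 19.9%, 22.9% and 25.4% in +Dox, without overlap (ΔPSI 10.6 points, limma adjusted p = 0.546). When only transcripts that share all other introns were compared, it was at 0% in each −Dox library and at 0%, 16.2% and 13.6% in +Dox, and the groups overlapped. In TMBIM4, a membrane protein gene, the 11-base exon was at 86.6%, 92.1% and 75.8% in −Dox and at 99.2%, 94.5% and 98.9% in +Dox. The −Dox libraries alone ranged from 75.8% to 92.1%, beside a ΔPSI of 12.7 points.

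The widest differences in this direction came from rare transcripts. CLEC18B, a C-type lectin gene with near-identical copies, had a 27-base exon at 16.1%, 10.6% and 19.2% in −Dox and 57.2%, 49.7% and 69.1% in +Dox, at a mean of only 1.32 TPM. PDIA3, which encodes a disulfide isomerase of the endoplasmic reticulum, had a 9-base exon at 0%, 2.75% and 0% in −Dox and 8.04%, 36.9% and 33.6% in +Dox, but its transcripts with these exon ends made up 1.91% of the gene's TPM. BLOC1S6 and ADGRL1 overlapped between the groups, at 0% to 7.56% against 6.54% to 22.8% for the 12-base exon of BLOC1S6 and 9.8% to 22.8% against 20.3% to 36.3% for the 15-base exon of ADGRL1. The BLOC1S6 transcripts held 2.59% of their gene's TPM.

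Among the events with lower PSI in +Dox, the smallest p belonged to SETD2, the histone H3 lysine 36 methyltransferase. Its 16-base exon, not a multiple of 3, was at 100% in each −Dox library and at 92.8%, 88.9% and 89.4% in +Dox. The skipping form was listed at 0 TPM in −Dox and at 0.417, 0.693 and 0.609 TPM in +Dox, beside 5.15 to 6.75 TPM of the inclusion form. No fold is given, since −Dox was at 0 (limma adjusted p = 0.195). On estimated counts this was the only one of 706 microexon events called (limma adjusted p = 0.0100), beside 7 of 26633 events of any length (0.0263%).

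PHF21A, a component of the LSD1-CoREST histone demethylase complex, had a 23-base exon at 98.2%, 100% and 95.4% in −Dox and 85.5%, 78.4% and 85.0% in +Dox, without overlap. Both forms together had a mean of 2.36 TPM, 22.6% of the gene's TPM. The skipping form of PHF21A was at 0 to 0.098 TPM in −Dox and 0.358 to 0.464 TPM in +Dox, and no matched transcripts were available for it. SUPT5H, a subunit of the elongation factor DSIF, had a 12-base exon at 91.5%, 91.2% and 92.9% against 88.4%, 86.7% and 83.95%. PTPRA, a receptor tyrosine phosphatase gene, had a 27-base exon at 38.6%, 32.3% and 40.3% against 26.9%, 26.1% and 28.7%. All 3 stood at lower PSI in every +Dox library, and none passed adjustment (limma adjusted p of 0.414, 0.638 and 0.686). For PTPRA the groups overlapped in matched transcripts, which share all other introns, at 61.8%, 63.8% and 85.1% in −Dox and 58.7%, 63.5% and 65.4% in +Dox. Its log2 ratio difference was -0.64 on TPM and -0.19 on estimated counts.

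CTNND1, which encodes the adherens junction protein p120 catenin, had an 18-base exon at 12.5%, 5.33% and 7.74% in −Dox and 1.88%, 2.15% and 0.948% in +Dox (log2 ratio difference -2.11, SE 0.41, limma adjusted p = 0.439). This direction turned when only inclusion and skipping transcripts with otherwise the same introns were compared, at means of 2.2% in −Dox and 3.55% in +Dox. By library these were 0%, 0% and 6.59% in −Dox and 6.05%, 0% and 4.59% in +Dox, and the groups overlapped. RELN, the gene of the secreted glycoprotein reelin, had a 6-base exon encoding 2 residues, at 31.9%, 23.6% and 23.1% against 19.4%, 12.6% and 11.2%. The gene itself rose from 2.31 to 5.76 TPM (log2 fold change 1.37, SE 0.08, edgeR adjusted p = 2.29e-07), and the inclusion form of this exon was at 0.38 to 0.62 TPM in −Dox and 0.46 to 0.87 TPM in +Dox while the skipping form went from 1.26 to 1.44 TPM up to 3.62 to 4.27 TPM.

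HEPACAM2, a cell adhesion gene of the immunoglobulin family, had a 25-base exon at 100%, 97.7% and 100% in −Dox and 93.8%, 91.2% and 83.5% in +Dox. Its gene rose as well (log2 fold change 1.31, edgeR adjusted p = 3.27e-05), and with a pseudocount of 1 TPM the log2 ratio difference turned to 0.31. In matched transcripts 1 +Dox library was at 100%, as were all −Dox libraries. KIAA0513 had a 30-base exon at 15.7%, 13.3% and 17.5% against 6.73%, 9.83% and 12.1%, and in matched transcripts this exon was at 0% in both groups. The 26-base exon of SEPTIN2, a septin gene, fell outside the rule for naming and was added after its values were seen. Its PSI was 41.6%, 42.7% and 38.9% against 26.0%, 37.6% and 21.2%, on transcripts with 2.37% of the gene's TPM.

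**Figure D3:**
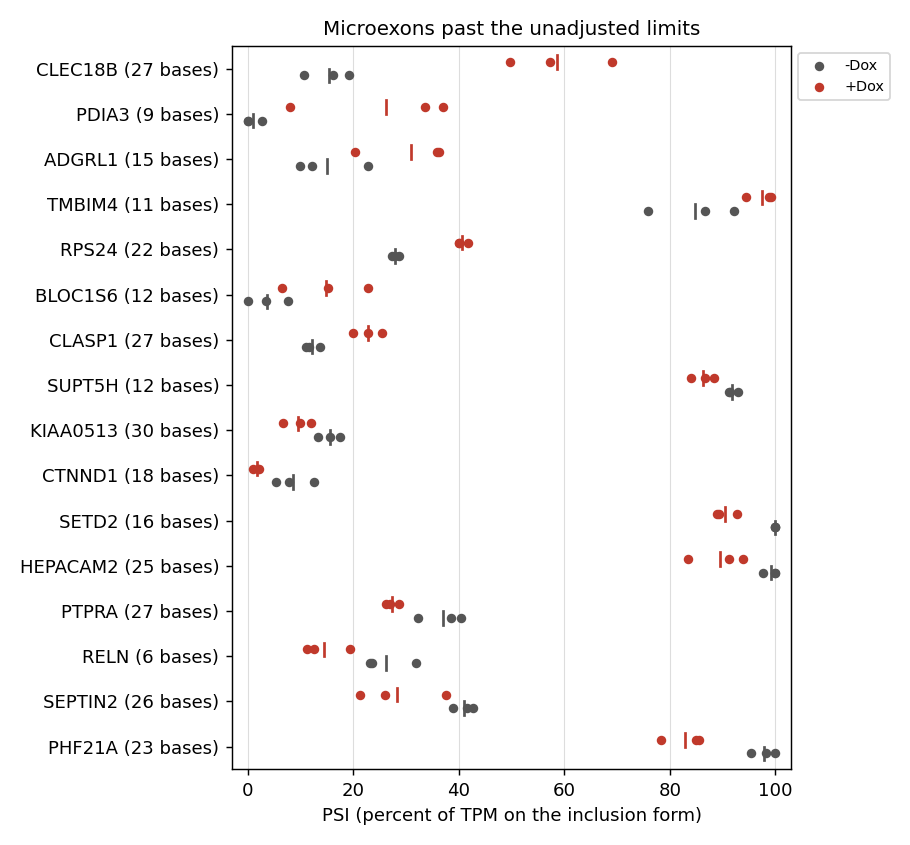
PSI in percent (horizontal axis) of 16 of the 17 microexon events past the unadjusted limits, with 1 point per library and a bar at each group mean (n = 3), grey for −Dox and red for +Dox. The groups overlap in ADGRL1 and BLOC1S6 and not in the other 14.

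Of 68 listed genes with a microexon known from neurons, 44 had a member, with 71 events in all. Every skipped microexon of these genes was counted, whether or not it is the one known from neurons. Their median PSI was 10.3% in −Dox, against 8.78% over all members, and 9.15% in +Dox, against 9.42%. Of the coding ones, 93.3% had a length that is a multiple of 3. Of these 71 events, 2 (2.82%, against 3.18% of all events) passed the unadjusted limits, in CLASP1 and PHF21A, both described above. The event of highest TPM is given for each of 12 of these genes.

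The 27-base exon of the transcription factor gene MEF2C was listed at 0% in every library, beside 58.7 TPM of both forms. Another MEF2C exon, of 24 bases and added after its values were seen, stood at 13.0% ± 0.824 in −Dox and 14.8% ± 2.17 in +Dox (SD, n = 3 each). SPAG9, a scaffold of JNK signalling, had its 12-base exon at 0% in 5 libraries and at 0.16% in the other. In KDM1A, the histone demethylase LSD1, the 12-base exon was at 0%, 0% and 0.502% in −Dox and 0.58%, 3.0% and 0% in +Dox. EIF4G1, a scaffold of translation initiation, followed with a 21-base exon at 2.94% ± 0.574 and 2.84% ± 1.18 (SD, n = 3 each). All 4 of the named exons of MEF2C (27 bases), SPAG9, KDM1A and EIF4G1 were below 4% in every library.

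Others were included in part. The 24-base exon of CLASP2 stood at 7.41% ± 1.26 in −Dox and 7.69% ± 2.21 in +Dox, and the 21-base exon of PTK2, the gene of focal adhesion kinase, at 10.3% ± 1.73 and 14.5% ± 4.76 (SD, n = 3 each). The PTK2 exon lies in the 3′ UTR of its most abundant inclusion transcript, which is annotated as a target of nonsense-mediated decay. MACF1 (18 bases, a cytoskeletal linker) was at 18.1% ± 3.44 and 19.8% ± 1.42, KIF21A (21 bases, a kinesin) at 21.8% ± 3.32 and 23.6% ± 1.61, MEAF6 (30 bases, a subunit of histone acetyltransferase complexes) at 31.9% ± 2.42 and 32.2% ± 2.42, and MAP4K4 (9 bases, a kinase) at 32.8% ± 2.76 and 35.4% ± 3.02. For MACF1, the most abundant transcript of each form is annotated as a retained-intron transcript and not as protein-coding. Compared between genes, the values of MEAF6 overlapped those of MAP4K4 in both groups, and those of MACF1 overlapped those of KIF21A in −Dox but not in +Dox. Within each of these exons the −Dox and +Dox values overlapped.

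ABI1, a subunit of the WAVE actin regulator, had its 15-base exon at 52.4%, 47.9% and 47.0% in −Dox and 54.6%, 57.0% and 56.6% in +Dox. The groups did not overlap, yet the event missed the limits (unadjusted p = 0.106, adjusted p = 0.732, limma). The 28-base exon of MYH10, which encodes a nonmuscle myosin, was at 99.8% to 100% in −Dox and at 99.4% to 100% in +Dox, and the only transcript that skips it is annotated as a target of nonsense-mediated decay. Another MYH10 exon, of 30 bases and added after its values were seen, stood at 16.2% ± 3.32 in −Dox and 16.1% ± 4.4 in +Dox (SD, n = 3 each). The level depended on which transcripts were compared: in matched transcripts ABI1 was at 0% and MEAF6 at 90.6% in −Dox. The 28-base exon of MYH10 was there at 0%, 100% and 56.0% in −Dox and at 38.8%, 100% and 100% in +Dox.

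**Figure D4:**
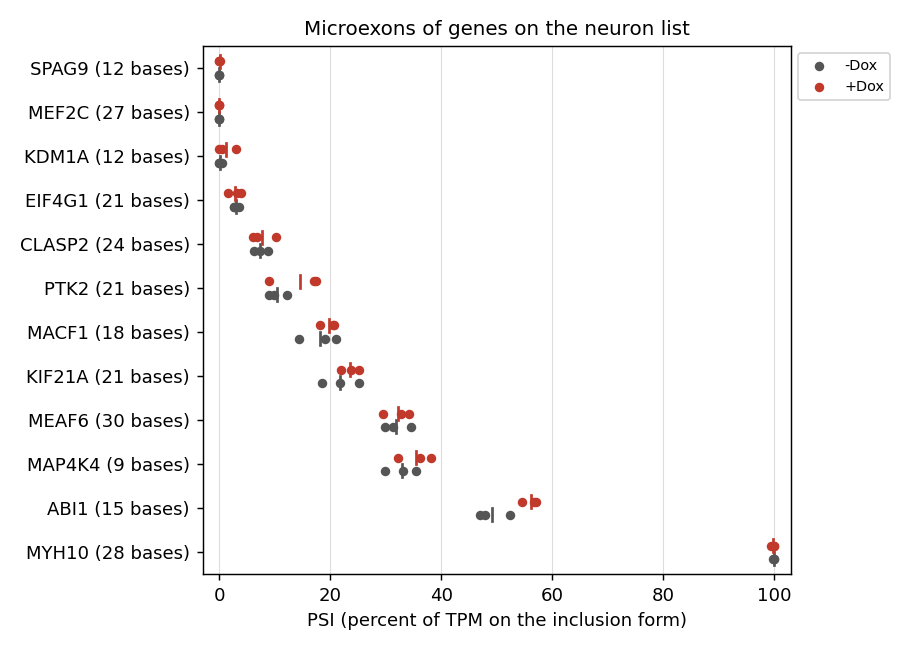
PSI in percent (horizontal axis) of the microexon with the highest TPM in each of 12 genes with a microexon known from neurons, with 1 point per library and a bar at each group mean (n = 3), grey for −Dox and red for +Dox. The order runs from 0% in MEF2C and at most 0.16% in SPAG9 to nearly 100% in MYH10, and the groups separate only in ABI1.

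Among the most abundant members of intermediate inclusion, PSAP, the gene of the lysosomal protein prosaposin, had a 9-base exon of 3 residues. PSI was 18.9%, 17.1% and 18.1% in −Dox and 24.0%, 22.0% and 24.6% in +Dox, without overlap (ΔPSI 5.51 points, unadjusted p = 0.0558, adjusted p = 0.716, limma). PICALM, a clathrin assembly gene, had a 24-base exon at 53.9%, 50.8% and 55.3% against 58.7%, 58.4% and 57.7%, while the gene fell (log2 fold change -0.56, SE 0.05, edgeR adjusted p = 1.48e-05). MICOS10, a subunit of the mitochondrial cristae complex, stayed at 89.1% to 90.2% and 89.5% to 90.3% for its 20-base exon. The inclusion form of MICOS10 was 1 transcript without an annotated coding sequence, at 205 to 238 TPM. Its most abundant skipping transcript is annotated as protein-coding, and the skipping form was at 23.5 to 26.1 TPM. RPL23A, a ribosomal protein gene with near-identical copies, spread from 22.2% to 42.6% within −Dox alone.

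Of the 27 regulators of microexons and splice site choice, 21 were high enough to test. SRRM4 was listed at 0 in −Dox and at up to 0.0025 TPM in +Dox, SRRM3 was at 0.209 to 0.348 TPM, and NOVA1 and ELAVL4 were listed at 0 throughout. PTBP1, the repressor, stood at 96.0, 94.6 and 101 TPM in −Dox and 83.7, 87.0 and 85.7 TPM in +Dox. It fell by 0.18 on the log2 scale (SE 0.05, edgeR adjusted p = 0.0263). CELF2 (-0.40, SE 0.07) and MBNL1 (-0.20, SE 0.05), 2 other splicing regulators, also fell, and no regulator rose, beside 7.68% of all genes that fell and 8.16% that rose. The call for PTBP1 was lost without −Dox replicate 2 or 3 or without +Dox replicate 1 or 2 (edgeR adjusted p of 0.0797 to 0.117). That for MBNL1 was lost without +Dox replicate 1 (edgeR adjusted p = 0.0788). A fit with replicate number as a block also ended the PTBP1 and MBNL1 calls.

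**Figure D5:**
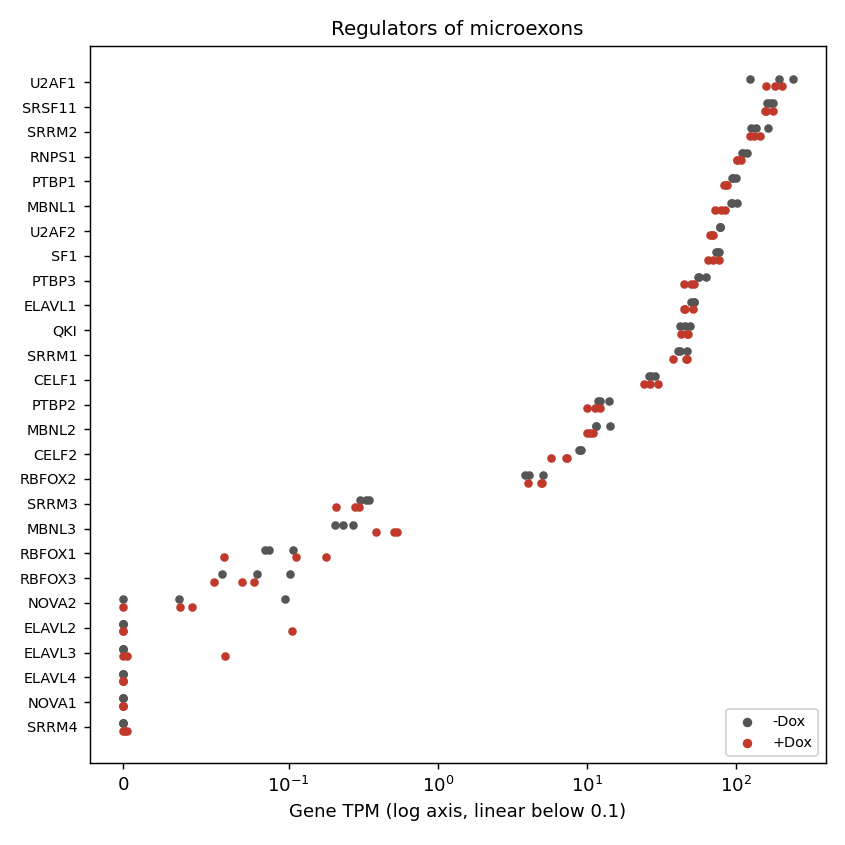
TPM (horizontal log axis, linear below 0.1) of 27 regulators in each library, grey for −Dox and red for +Dox. SRRM4 lies at or next to 0 and SRRM3 below 0.4 TPM, while PTBP1 lies between 83.7 and 101 TPM.

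All 587 host genes were tested for expression. In +Dox 82 rose (14%, against 8.16% of all 21045 genes tested) and 67 fell (11.4%, against 7.68%). Host genes had to reach 1 TPM to be members, which the other genes did not. An edgeR adjusted p under 0.05 with an absolute log2 fold change above 1 was reached by 3 (0.511%, against 1.46% of all genes tested), RELN, HEPACAM2 and UNC13A, the last named after its value was seen.

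At the length limit, 76 members of 30 bases had a median −Dox PSI of 31.5%, and 39 events of 31 bases, just outside, one of 27.5%. The 2 just inside the limit of 1 TPM were a 27-base exon of CASK and a 15-base exon of PORCN, each at 1.01 TPM and at 0% PSI in all libraries. Just outside were another event on the same 26-base exon of SEPTIN2 (0.987 TPM, PSI of 85.6% to 100%) and a 21-base exon of PPM1N (0.97 TPM, PSI of 0%).

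Across libraries, the leading axis of microexon inclusion did not separate the groups. The first principal component of the log2 inclusion ratio over the 706 events (26.45% of variance) placed −Dox libraries at -9.635, 2.173 and -2.192 and +Dox libraries at -5.519, -5.075 and 20.25. The +Dox replicate 3 stood apart, and without it 19 events (2.69%, against 3.29% of all) passed the unadjusted limits and none the adjusted ones. Over all events the first component (22.2% of variance) separated the groups, at -70.6 to -44.5 in −Dox and 28.5 to 70.1 in +Dox. Across the 640 microexons with full windows, the share of C in the 100 bases before the exon had a Spearman correlation of 0.015 with the log2 ratio difference, given as a description, since all points share the same 6 libraries.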

How the data were processed

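PolyA RNA of 3 −Dox and 3 +Dox libraries was sequenced as paired ends. The authors quantified reads with Salmon 1.10.2 and deposited estimated counts (expected counts, not scaled) and TPM (scaled by Salmon for effective length and depth) per transcript and library, without pooling. The labels name hg38. The index and the strand setting are not given in the sources used here, so overlapping genes and near-identical copies are uncertain. Salmon divides reads among whole transcripts, so PSI reflects reads over entire transcripts and not only those across a microexon.

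Of 252045 transcripts, 251142 matched GENCODE 44 with version, all at the annotated length. Events of at least 1 TPM and a mean of 10 counts on either form (26633) were fitted with limma 3.58.1 on log2((inclusion TPM + 0.1)/(skipping TPM + 0.1)). Fold values on this scale understate changes of low forms. Where a form is at 0 throughout, they follow the level of the other form instead. The 27-base exon of MEF2C, with an inclusion form at 0 in every library, had a log2 ratio difference of 0.315. Of the 706 members, 476 had at least 10 counts on both forms. Gene counts, summed and rounded, with a mean above 10 were tested with edgeR 4.0.16 (quasi-likelihood, TMM) in R 4.3.3, with DESeq2 1.42.0 as an alternative. P-values were adjusted by Benjamini-Hochberg over all events or genes. The rMATS test of the study needs junction reads and was not run. Scripts were tested on simulated data.

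The members, gene lists, markers and motifs were chosen with earlier results of these data known. Named were up to 8 events per direction with the smallest p past the unadjusted limits, the event of highest TPM in up to 12 genes with a microexon known from neurons, the 5 of highest TPM with a mean PSI of 10% to 90% (1 event per gene each), those beside the TPM limit, and the lists of poly C-binding proteins and regulators. One of these events and some marker genes are not reported here. The alternatives were another pseudocount, TPM minimum, count minimum, ΔPSI limit and variance prior, estimated counts, matched transcripts, a replicate block, 1 event per gene, 3 to 27 bases, and each library left out.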

Additional observations from a re-analysis of the deposited data

How the results depend on the processing

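The count of microexon events called at adjusted p was 1 (SETD2) with estimated counts and 0 under the other alternatives computed for it, which did not include 1 event per gene or 3 to 27 bases. Over all events it was 7 of 26633 with estimated counts and 3 of 10797 in matched transcript pairs. The 17 events past the unadjusted limits (8 more included, 9 more skipped) became 31 (18 more included, 4.39% against 4.3% of all events) with a pseudocount of 1 TPM. They became 9 of 454 (5 and 4, 1.98% against 2.21%) at a mean of at least 5 TPM. At a ΔPSI above 10 points there were 11 (3 more skipped), and the share over all events was not computed for that limit. Leaving out each library gave 11 to 22 events, 5 to 13 more included and 6 to 13 more skipped, lowest in total without −Dox replicate 3 (1.56% to 3.12% of members, against 3.18% to 3.39% of all events). In matched transcript pairs, available for 319 events, 13 passed the unadjusted limits, 9 more included and 4 more skipped (4.08%, against 4.53% of all events), and 27 (8.46%, against 11.3% of all events) had groups without overlap, where TPM over all transcripts gave 78 of 706 (11.05%, against 10.3%). PCBP1 lay between 1.9 and 1.98 on the log2 scale when each library was left out.

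The replicate numbers did not pair the libraries: deviations of same-numbered libraries correlated at -0.021, -0.014 and -0.011 for the inclusion ratio. With the replicate block 17 events passed the unadjusted limits, 12 more included and 5 more skipped (2.41%, against 3.08% of all events), 9 of them shared with the fit without it.

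Directions turned for the log2 ratio difference of CTNND1 in matched transcripts (0.65), of HEPACAM2 with a pseudocount of 1 TPM (0.31) and of MICOS10 with estimated counts (-0.040). When each library was left out, the log2 ratio difference ranged from -0.022 to 0.071 for MICOS10 and from -0.37 to 0.32 for RPL23A, and the log2 fold change from -0.090 to 0.021 for SRRM2, -0.017 to 0.078 for SRRM1, -0.088 to 0.020 for RBFOX2, -0.18 to 0.063 for RBFOX3 and -0.20 to 0.13 for U2AF1. None of these passed the test. The blocked fit ended the calls of PCBP2, PTBP1 and MBNL1 (edgeR adjusted p of 0.105, 0.0748 and 0.0750). The cause was not tested. Depth limits the rarer form: 230 of 706 events had under 10 counts on it.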
